A study of Mus musculus with 4 samples.

Results

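Ly6C low patrolling monocytes were followed in the dura mater and brain of mice after photothrombotic injury (PTI), in which a light-activated dye clots the vessels under the skull, and after sham operation. They were chosen among droplet-sequenced CD45+ cells as those with at least 3 of the 6 marker genes Ace, Treml4, Eno3, Ear2, Adgre4 and Cd300e detected, with Ly6c2 and C1qa below 1.5 on the deposited natural-log scale, and with no molecule of the T cell gene Cd3e, the B cell gene Cd79a, the neutrophil gene Retnlg or the macrophage gene Gpnmb. This gave 275 cells among the 14586 that passed the study's limits on detected genes and mitochondrial RNA, out of 18969 barcodes. All mice were male C57BL/6J adults of 8 weeks and were taken on day 3. The 4 libraries were sham brain (S3 brain), sham dura mater (S3 dura mater), injured brain (D3 brain) and injured dura mater (D3 dura mater). The labels call the sham libraries CT and the injured ones INJ. There was 1 library per tissue and condition, and the number of mice behind each is not given in the sources used here, so the spread between mice is unknown and no test was made. Whether the vessels were flushed before the tissues were taken is also not given in the sources used here, so cells inside vessels and cells in the tissue cannot be told apart.

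Monocytes of mice come in a Ly6C high form, which leaves the blood for inflamed tissue, and a Ly6C low form, which crawls along the inner wall of small vessels, removes debris and surveys the endothelium. Ly6C low monocytes arise largely from Ly6C high ones, depend on the nuclear receptor Nr4a1 and on signals through Csf1r and Cx3cr1, and lose the chemokine receptor Ccr2 as they mature. The comparison of sham and injured tissue asks what such cells express where the vessels of the dura mater and brain have been destroyed.

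The values are molecules: the deposited numbers converted back exactly to unique molecular identifier (UMI) counts. Levels are given in CPM, the UMIs of a gene per 1000000 UMIs summed over the chosen cells of a library, and a ratio is the log2 ratio of 2 such levels. Intervals are 95% intervals for counting error only and do not cover differences between mice. The 4 libraries held 49003977 to 115154317 UMIs, and 17485 to 17862 genes were listed in each. Pairs of libraries shared 3 to 11 barcodes, and no barcode was a Ly6C low monocyte in more than 1 library. The Ly6C low monocytes numbered 51, 35, 155 and 34 in S3 brain, S3 dura mater, D3 brain and D3 dura mater, and every set of 4 values below follows this order. Their summed UMIs were 388795, 329927, 1143966 and 365435. Their median depth was 6331, 7669, 5787 and 8596.5 UMIs per cell, against 15335, 14937.5, 15940 and 19123 in the Ly6C high monocytes of the same libraries.

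The 6 genes that chose the cells were detected as the rule required, and their levels are a description. Ace, the peptidase that makes angiotensin II, stood at 743, 612, 588 and 482 CPM. Treml4, a receptor that binds dead cells, stood at 388, 333, 446 and 238 CPM. The ribonuclease gene Ear2 stood at 684, 594, 397 and 219 CPM, although reads of its near-identical paralogs may be shared with it. Each of these 3 genes had its lowest level in D3 dura mater. Adgre4, an adhesion receptor of the EMR family, stood at 460.4, 430.4, 352 and 323 CPM. Eno3, a muscle enolase, stood at 329, 303, 337 and 167 CPM, and the activating receptor gene Cd300e at 365, 188, 404 and 222 CPM. Ly6C high monocytes were chosen to have few or none of the 6 genes detected, so their low level there was set by the choice. None of the 6 genes passed 35.3 CPM in those cells in any library. All 6 markers were detected in 24, 13, 68 and 10 cells, whereas 4, 4, 10 and 8 cells carried just 3.

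Fcgr4, the gene of the activating IgG receptor of these cells, was low in Ly6C high monocytes, and so was Treml4, there by the choice of cells. The promoters of Treml4 and Fcgr4 are shown because each holds the core bound by the myeloid factor PU.1. The sequences are RefSeq promoter windows of 300 bases on GRCm38.p6, printed 5′ to 3′ on the gene's strand. Treml4 lies at chr17:48264295-48275360 and its window is chr17:48264045-48264344 on the plus strand, and Fcgr4 lies at chr1:171018920-171029761 with its window at chr1:171018676-171018975 on the plus strand. Capitals mark GGAAGT or its reverse complement, searched on both strands.
Treml4: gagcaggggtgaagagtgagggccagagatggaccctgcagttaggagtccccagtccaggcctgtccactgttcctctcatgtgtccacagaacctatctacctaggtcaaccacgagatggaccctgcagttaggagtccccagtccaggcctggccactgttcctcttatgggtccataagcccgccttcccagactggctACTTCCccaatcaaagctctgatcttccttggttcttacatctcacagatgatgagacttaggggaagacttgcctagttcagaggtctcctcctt
Fcgr4: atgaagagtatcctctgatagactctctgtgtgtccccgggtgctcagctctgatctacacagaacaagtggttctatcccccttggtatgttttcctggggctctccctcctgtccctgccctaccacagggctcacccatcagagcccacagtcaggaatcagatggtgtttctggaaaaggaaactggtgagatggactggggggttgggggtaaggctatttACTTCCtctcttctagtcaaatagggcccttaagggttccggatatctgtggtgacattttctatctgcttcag
The core was also found in the windows of Adgre4 and Cd300e and in neither window of Ace nor in those of Eno3 and Ear2. It occurs in 23.8% of all 32851 promoter windows, so a match is a description of letters and not evidence of binding.

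Cells on either side of the limit on markers were of mixed kinds. Cells with 2 markers that met every other condition numbered 17, 36, 40 and 25. In these, Cd209a, a dendritic cell lectin, stood at 1375, 1121, 702 and 811 CPM, against 471, 25.1, 512 and 0 CPM in the cells with exactly 3 markers. Ace stood at 4.14, 15.8, 29.8 and 7.02 CPM just outside and at 88.4, 151, 275 and 157 CPM just inside. Ly6c2 was not detected in 43, 28, 146 and 25 of the Ly6C low monocytes, and its highest natural-log value among them was 1.14, 1.22, 1.21 and 1.19. The nearest cells above the limit on Ly6c2 started at 1.513, 1.505, 1.578 and 1.596. The requirement of no Retnlg molecule cost the most cells, since 59, 23, 70 and 24 cells with at least 3 markers and low Ly6c2 and C1qa carried it. A Retnlg molecule was also present in 18.9, 27.1, 12.9 and 27.8% of T cells, whose median depth was 7022, 6967, 5890 and 6634 UMIs, and T cells should lack the gene. With Retnlg allowed below 1.5, a choice made after seeing the data, the Ly6C low monocytes numbered 66, 48, 184 and 50, and the added cells held a median of 1 Retnlg UMI.

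Defining markers of T cells, NK cells and endothelium were near 0 in the Ly6C low monocytes, while those of some other cell types were not. The 6 T cell markers summed to 5.14, 6.06, 4.37 and 2.74 CPM and the 6 NK cell markers to 10.3, 3.03, 5.24 and 0 CPM. Over the 5 endothelial markers the sum was 2.57, 0, 2.62 and 2.74 CPM, and Ly6c1 and Esam were at 0 in each library. The 7 microglia markers summed to 5929, 4983, 4894 and 5476 CPM, of which Cst3, a protease inhibitor that monocytes also express, gave 5709.9, 4786, 4725 and 5227 CPM, while the microglia gene Tmem119 stood at 5.14, 3.03, 3.497 and 0 CPM and Sall1 at 0, 0, 0.874 and 0 CPM. Some cells carried RNA of a further cell type beside the monocyte genes. At least 2 markers of one other lineage (B, T or NK cells, plasmacytoid dendritic cells, mast cells or eosinophils) were detected in 14 of 51, 15 of 35, 7 of 155 and 16 of 34 cells. A smaller set, called mixed cells, was defined after seeing the data as having over 0.5% of their UMIs from 8 neutrophil genes or at least 10 UMIs of another list of markers. These numbered 3, 2, 12 and 4, or 21 of 275. In S3 dura mater a single cell drew 30.5% of its UMIs from the neutrophil genes. The 3 mixed cells of S3 brain carried dendritic cell markers, and the 12 of D3 brain carried neutrophil, platelet, macrophage or dendritic cell markers. Without the mixed cells, the neutrophil genes summed to 304, 742, 515 and 688 CPM, against 3683, 12433, 2315 and 10404 CPM in T cells. Macrophage markers summed to 100, 106, 511 and 432 CPM, or 76.9, 127, 165 and 171 CPM without the mixed cells. For dendritic cell markers it was 206, 194, 115 and 84.8 CPM, or 24.6, 54.3, 6.26 and 24.5 CPM. Platelet markers stood at 263 CPM in D3 brain, or 13.6 CPM without the mixed cells. B cell markers summed to 270, 270, 114 and 194 CPM. Infiltrating macrophage markers summed to 324, 270, 768 and 755 CPM, or 326, 232, 624 and 321 CPM without the mixed cells.

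The share of Ly6C low monocytes among kept CD45+ cells was highest in the injured brain. It was 1.36% in S3 brain (1.01 to 1.79, exact binomial interval), 0.981% in S3 dura mater (0.684 to 1.36), 3.37% in D3 brain (2.87 to 3.93) and 1.27% in D3 dura mater (0.884 to 1.78). The interval of D3 brain did not overlap any of the others, and the 2 dura mater intervals overlapped. Ly6C high monocytes made up 2.40, 3.64, 1.80 and 3.34% of the kept cells. Ly6C low cells therefore made up 36.2% of both monocyte kinds together in S3 brain (28.3 to 44.7), 21.2% in S3 dura mater (15.2 to 28.2), 65.1% in D3 brain (58.7 to 71.2) and 27.6% in D3 dura mater (19.96 to 36.4). With Retnlg allowed below 1.5, the Ly6C low shares were 1.76, 1.34, 3.999 and 1.87%. When every cell was thinned to 2000 UMIs before the rule was applied, they were 1.23, 0.729, 2.68 and 0.675%. The order with D3 brain first held in both. A share depends on how many other CD45+ cells entered the same sort, and numbers of cells per tissue were not analysed here.

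**Figure D1:**
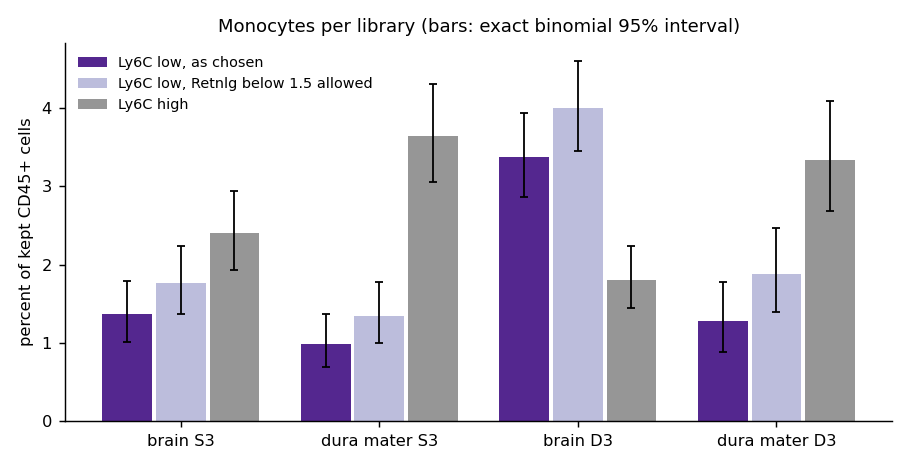
Percent of kept CD45+ cells that were Ly6C low monocytes (dark bars), Ly6C low monocytes with Retnlg allowed below 1.5 (pale bars) or Ly6C high monocytes (grey bars) in each of the 4 libraries, with 95% exact binomial intervals. In D3 brain the Ly6C low bar stands at 3.37% and above the Ly6C high bar at 1.80%, while the Ly6C high bar is the taller one in the other 3 libraries.

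Against Ly6C high monocytes of the same library, genes that are known for Ly6C low monocytes and that the rule did not use were higher almost throughout. Of 2629 genes with at least 100 UMIs in both kinds of monocyte together in every library, 91 were at least 2-fold higher in Ly6C low cells in all 4 libraries (3.46%) and 86 at least 2-fold lower in all 4 (3.27%), genes of the rule included. Over the list of 24 known Ly6C low genes, 17 of 21, 15 of 18, 21 of 23 and 16 of 18 measured members were at least 2-fold higher and none was lower, with median log2 ratios of 2.87, 2.87, 3.22 and 2.52. Over all genes measured in each library, 7.91%, 6.34%, 13.3% and 6.14% were at least 2-fold higher and 9.1%, 11.3%, 9.77% and 7.93% at least 2-fold lower, and the median was -0.06, -0.13, 0.01 and -0.06. Fcgr4 stood at 417, 327, 698 and 358 CPM in Ly6C low against 13.1, 8.80, 22.0 and 23.9 CPM in Ly6C high monocytes, log2 ratios of 4.99, 5.22, 4.99 and 3.91. Spn, the sialophorin CD43 that serves as a sorting marker of these cells, stood at 406, 382, 373 and 211 CPM against 55.6, 70.8, 40.04 and 36.6 CPM, log2 ratios of 2.87, 2.43, 3.22 and 2.52. Neither gene overlapped between the 2 kinds of monocyte in any pair of libraries.

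The 12 genes with the highest smallest ratio over the 4 libraries, Fcgr4 and Spn among them, were of varied roles. Itgal, the alpha chain of LFA-1 by which these cells crawl on endothelium, stood at 799.9, 855, 778 and 651 CPM against 76.6, 74.99, 60.7 and 91.0 CPM, log2 ratios of 3.38, 3.51, 3.68 and 2.84. Cd9, a tetraspanin, showed log2 ratios of 4.61, 4.03, 3.92 and 4.42, and the phosphatase gene Dusp16 of 4.37, 4.38, 4.75 and 3.39. Hfe, which tunes iron uptake, showed 3.78, 4.14, 3.996 and 3.48, and the transcription factor gene Pou2f2 2.86, 2.87, 3.44 and 2.42. Grk3, a kinase of G protein-coupled receptors, Pglyrp1, a peptidoglycan-binding protein, Gngt2, a G protein subunit, Cd300ld, a receptor of the CD300 family, and the phosphatase gene Dusp5 completed the 12. The scavenger receptor gene Cd36 stood at 301, 239, 193 and 134 CPM, whereas it stood at 0, 0.463, 1.33 and 2.77 CPM in Ly6C high monocytes. S1pr5, the sphingosine phosphate receptor through which these cells leave the bone marrow, stood at 175, 90.9, 128 and 54.7 CPM against 0, 1.39, 0.667 and 1.11 CPM, and the transcription factor gene Tcf7l2 at 165, 112, 159 and 107 CPM against 0.654, 1.85, 5.34 and 2.22 CPM.

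Some genes of the same identity differed less between the monocytes. Nr4a1, on which the cells depend, stood at 1839, 1579, 1842 and 1401 CPM against 1454, 983, 717 and 635 CPM, and its log2 ratio was 0.34, 0.68, 1.36 and 1.14. It passed 2-fold in the 2 injured libraries. Cx3cr1, the fractalkine receptor, stood at 360.1, 264, 299 and 312 CPM against 122, 102, 100.1 and 89.9 CPM. Csf1r, the receptor of their survival factor, stood at 836, 800.2, 808 and 695 CPM against 339, 275, 240.2 and 298 CPM and was past 2-fold higher in all 4 libraries. Ifitm6, an interferon-induced membrane protein included in the list, was not higher: it stood at 401, 521, 471 and 342 CPM against 637, 540.2, 538 and 601 CPM.

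Genes of Ly6C high monocytes were low in the chosen cells. Over the list of 17, of which Ly6c2 is no member, 12 of 14, 11 of 16, 13 of 14 and 13 of 15 measured members were at least 2-fold lower, with median log2 ratios of -3.03, -1.55, -2.11 and -1.70. Its members Ccr2, F13a1 and Vcan also helped to choose the Ly6C high monocytes. The contrast of these genes was therefore partly set by that choice. F13a1, a clotting factor subunit made by inflammatory monocytes, stood at 20.6, 66.7, 43.7 and 112 CPM against 959, 1036, 983 and 1114 CPM, log2 ratios of -5.54, -3.96, -4.49 and -3.31. Ccr2 stood at 237, 300.1, 212 and 572 CPM against 832, 760.1, 972 and 1205 CPM, so that its remainder was greatest in D3 dura mater. Lyz1, a lysozyme, was the exception to the direction, since it was past 2-fold higher in S3 dura mater, at 20.6, 233, 8.74 and 30.1 CPM against 8.51, 12.04, 31.4 and 7.21 CPM, and 1 cell held 93.5% of its UMIs there. Prtn3 and Mmp8, granule proteases of young myeloid cells, and Fn1, fibronectin, were used by neither rule and also led the genes that were lower.

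**Figure D2:**
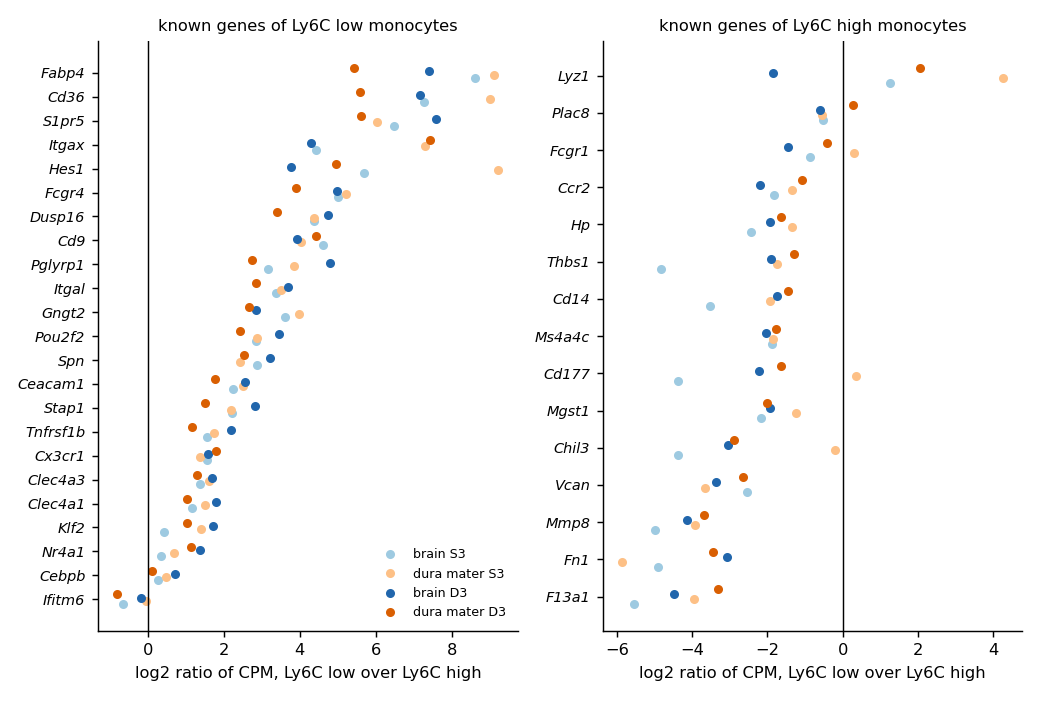
Log2 ratio of CPM of Ly6C low over Ly6C high monocytes for 23 known Ly6C low genes (left) and 15 known Ly6C high genes (right), 1 point per library. A gene with no UMI in 1 kind of monocyte is plotted against a floor of 3 UMIs. Points for Fcgr4, Itgal and Spn lie well right of 0 in all 4 libraries, and those for Fn1 lie well left of it. Ccr2, F13a1 and Vcan also helped to choose the Ly6C high monocytes.

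Further gene groups separated the 2 kinds of monocyte. In the adhesion list of 20, 5 of 15, 6 of 16, 9 of 18 and 4 of 15 measured members were at least 2-fold higher in Ly6C low cells, among them Itgb1 and Itgb2 in all 4 libraries, and the median log2 ratio was 0.87, 0.81, 0.87 and 0.45. Of the feedback regulators of NF-kB signalling, 3 of 8, 6 of 10, 8 of 11 and 2 of 10 measured members were at least 2-fold higher, with median log2 ratios of 0.80, 1.15, 1.33 and 0.79. Dusp2 and Nfkbiz passed 2-fold in all 4 libraries. Interferon-stimulated genes were lower, with medians of -1.33, -1.27, -1.22 and -0.49, and 5 of 12, 7 of 14, 5 of 11 and 3 of 8 measured members were at least 2-fold lower, with Ifi209 and Isg15 among them in all 4. Of the genes of dividing cells, 6 of 6, 5 of 6, 6 of 6 and 6 of 6 were at least 2-fold lower, and their summed level was 247, 388, 13.1 and 16.4 CPM against 891, 971, 1054 and 1012 CPM in Ly6C high monocytes. With the mixed cells left out it was 6.15, 54.3, 11.5 and 14.0 CPM. Of the class I antigen presentation genes, 3 of 10, 2 of 9, 4 of 10 and 2 of 9 measured members were at least 2-fold higher, with medians of 0.046, 0.37, 0.53 and 0.36, and B2m and H2-K1 were among them in all 4 libraries. Among receptors for survival and growth factors, Il10ra, the interleukin 10 receptor, was past 2-fold higher in all 4 libraries at 226, 309, 193 and 197 CPM against 72.6, 78.2, 53.4 and 53.8 CPM.

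Summed over cells, Ly6C low monocytes of D3 brain held more RNA of Cxcl2, Il1b, Tnf, Cd14 and C5ar1 than those of S3 brain. Of 2372 genes with at least 100 UMIs in both conditions together, 46 were at least 2-fold higher at D3 (1.94%) and 18 at least 2-fold lower (0.759%). The median log2 ratio over these genes was 0.05. For each gene list below, a member counts as measured from 100 UMIs upward over the compared pair, and a median is taken over members with at least 10. Without the mixed cells the counts were 31 higher and 9 lower of 2003. Cxcl2 (gene at chr5:90903871-90905938), a chemokine that attracts neutrophils, stood at 61.7, 54.6, 1249 and 76.6 CPM. D3 brain was high, and the other 3 libraries lay between 54.6 and 76.6 CPM. After thinning to 2000 UMIs, Cxcl2 was detected in 9.80, 2.86, 24.5 and 8.82% of the Ly6C low monocytes. In D3 brain its median over cells was 0, its upper quartile 2.57 and its mean 9.01 UMIs per 10000. The cell with the most held 217. The high level in D3 brain was thus that of a minority of cells. The log2 ratio of Cxcl2 in D3 over S3 brain was 4.34 (3.76 to 4.99), 3.31 without the mixed cells, and 1.65 in Ly6C high monocytes.

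Il1b, the interleukin 1 beta gene at chr2:129364570-129371139, stood at 995, 1503, 3532 and 2460.1 CPM, so that both injured libraries were above both sham libraries. Its log2 ratio in the brain was 1.83 (1.68 to 1.98), against 0.19 (0.10 to 0.29) in Ly6C high monocytes, and its D3 to S3 ratio in the dura mater was 0.71 (0.55 to 0.87). Tnf, which encodes tumour necrosis factor, stood at 72.0, 21.2, 179 and 35.6 CPM, with a brain ratio of 1.32 (0.74 to 1.94). After thinning to 2000 UMIs, Tnf was detected in 13.7% of these cells in S3 brain and 13.5% in D3 brain. The rise in its summed level was therefore not a rise in the share of cells with Tnf. Ptgs2, the inducible cyclooxygenase of prostaglandin synthesis, stood at 38.6, 57.6, 146 and 24.6 CPM, and D3 brain was again the highest. Over the list of 23 cytokines, 9 were measured, 3 were at least 2-fold higher in the brain (Cxcl2, Il1b and Tnf) and 1 was lower (Ccl4). Without the mixed cells 2 were higher (Cxcl2 and Il1b) and 2 lower (Ccl3 and Ccl4) of 8, and Tnf had a ratio of 0.97. The median was 0.21, or 0.53 without the mixed cells. Ccl4, a chemokine for T cells and monocytes, stood at 864, 373, 333 and 282 CPM, a ratio of -1.38 in the brain. With each cell given the same weight, its mean was 4.14 UMIs per 10000 in S3 brain and 2.71 in D3 brain. The cell with the most had 74.5 in S3 brain and 52.8 in D3 brain. After thinning to 2000 UMIs, Ccl4 was detected in 23.5% of these cells in S3 brain and 24.5% in D3 brain. The fall in the summed level was therefore not a fall in the share of cells with Ccl4.

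Further genes that were higher in D3 brain included receptors, a transporter and a matrix protein. Cd14, the coreceptor for bacterial lipopolysaccharide, stood at 74.6, 230.4, 402 and 443 CPM, and S3 brain was the low library. C5ar1, the receptor of the complement fragment C5a, stood at 46.3, 72.7, 209 and 131 CPM, a brain ratio of 2.17 (1.48 to 2.95). Slc7a11, the cystine importer that feeds glutathione synthesis, stood at 20.6, 90.9, 193 and 13.7 CPM and was highest in D3 brain, with a ratio of 3.23 (2.23 to 4.46). Thbs1, thrombospondin 1, which restrains vessel growth, stood at 33.4, 330.4, 324 and 588 CPM. S3 brain was the low library, with ratios of 3.28 for D3 over S3 brain and 3.30 for S3 dura mater over S3 brain. After thinning to 2000 UMIs, Thbs1 was detected in 3.92, 20, 15.5 and 29.4% of the Ly6C low monocytes. Its median over cells was 0 in each library, so its RNA lay in a minority of the cells. The cell with the most held 29.3 UMIs per 10000 in D3 brain and 39.6 in S3 dura mater, against means of 1.97 and 3.00. Basp1, a membrane protein of the cell cortex, Ninj1, which ruptures the membrane of dying cells, and the early response gene Ier3 followed, with brain ratios of 2.32, 2.11 and 2.02. Pecam1, the adhesion molecule CD31, was the member of the adhesion list past 2-fold, at 25.7, 39.4, 87.4 and 62.9 CPM and a ratio of 1.76 (0.83 to 2.87).

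Few transcription factor genes passed 2-fold in the injured brain. Of the 22 in the list, 18 were measured, Nr4a2 was among those at least 2-fold higher and Hes1 was lower, and the median was 0.04. Nr4a2, a nuclear receptor related to Nr4a1, stood at 61.7, 306, 199 and 192 CPM. Hes1, a target of Notch signalling, which directs Ly6C low fate, stood at 571, 279, 227 and 205 CPM with a brain ratio of -1.33 (-1.59 to -1.06). The list of known Ly6C low genes had a median of 0.15 in the brain, and Hes1 was its only member past 2-fold among 23 measured. Of the Ly6C high list, 5 of 10 measured members were at least 2-fold higher in D3 brain, with a median of 0.91, and 3 of 8 with a median of 0.036 without the mixed cells.

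**Figure D3:**
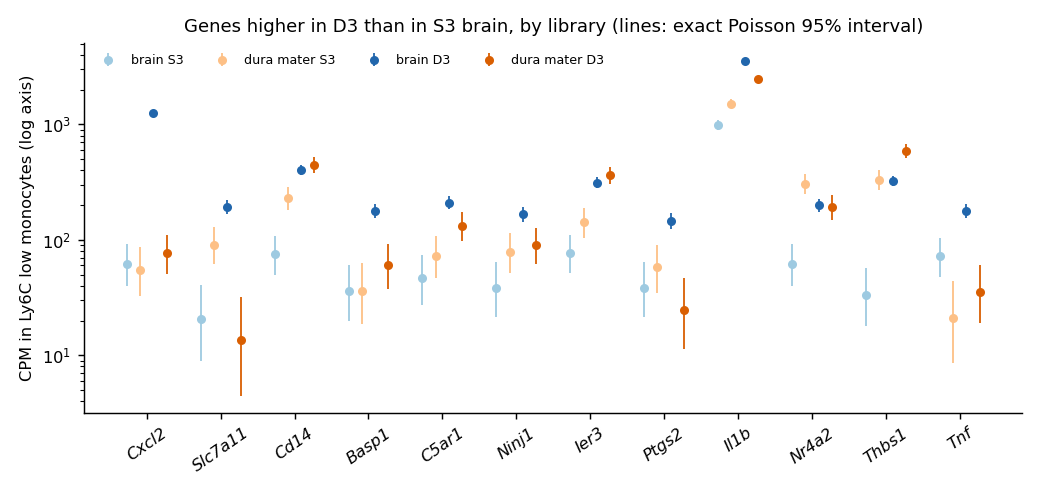
Level in Ly6C low monocytes, in CPM on a log axis, of 12 genes that were higher in D3 than in S3 brain, in the 4 libraries, with 95% exact Poisson intervals that cover counting error only. For Cxcl2 the D3 brain point is far above the other 3, while for Cd14 and Thbs1 the S3 brain point is the low one.

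Fewer genes were lower in the injured brain. The early response genes Egr1 and Atf3 had ratios of -1.36 and -1.12. With the mixed cells left out Atf3 had -0.83, and Egr1 had -1.24 but fewer than 100 UMIs, so neither was then called. Pdcd4, a repressor of translation, had a ratio of -1.62, the lectin receptor gene Clec2d of -1.15 and the inhibitory lectin gene Clec12a of -1.02. Arhgap15, a regulator of Rac signalling, had -1.06. For Spp1, osteopontin, the level in T cells differed too. It stood at 12.9, 57.6, 152 and 8.21 CPM in Ly6C low monocytes, with a brain ratio of 3.56, while T cells had a ratio of 6.00 at 1.54, 0.719, 98.2 and 1.10 CPM.

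In the dura mater, Tgfbi, Plac8 and Ctsc were higher at D3 and Fabp4 and Pglyrp1 were lower. Of 1055 genes with at least 100 UMIs, 19 were at least 2-fold higher (1.8%) and 15 at least 2-fold lower (1.42%), around a median of 0.05. With mixed cells left out, the counts were 11 and 8 of 872. Tgfbi (gene at chr13:56609523-56639562), a secreted matrix protein induced by TGF beta, stood at 304, 252, 398 and 779.9 CPM, higher in D3 dura mater than in the other 3 libraries. Its dura mater ratio was 1.63 (1.27 to 2.003) and 1.31 without the mixed cells, against 0.67 in Ly6C high monocytes. Plac8, a gene of Ly6C high monocytes, stood at 1613, 1276, 1790.3 and 2704 CPM with a ratio of 1.08 (0.92 to 1.25). Ctsc, cathepsin C, stood at 301, 276, 439.7 and 607 CPM.

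Genes lower in the injured dura mater included 2 of the Ly6C low list. Fabp4, a fatty acid carrier, stood at 512, 255, 337 and 71.1 CPM, the lowest in D3 dura mater, with a ratio of -1.84 (-2.53 to -1.19). Pglyrp1 stood at 615, 773, 721 and 372 CPM, a ratio of -1.05 (-1.37 to -0.75). Over the Ly6C low list the median in the dura mater was -0.44, and over the Ly6C high list it was 0.56, or -0.51 and 0.94 without the mixed cells. With at least 4 of the 6 markers required, the Ly6C high median was -0.14, so its direction rested on the cells with just 3 markers, which were 4 of 35 in S3 and 8 of 34 in D3 dura mater. Over all 6458 genes with at least 10 UMIs it was 0.06. Cd83, an activation marker, had a ratio of -1.03, and Zc3hav1, an antiviral RNA-binding protein, of -1.22. The neutrophil genes S100a8, S100a9, Camp and Ltf were lower at D3, with ratios of -6.03, -6.05, -6.40 and -5.82, and these rested on the mixed neutrophil cell of S3 dura mater. When the mixed cells were removed, S100a8 had a ratio of -0.01 and S100a9 of -0.35. Hmox1, heme oxygenase 1, had a ratio of 2.36, and -0.36 without the mixed cells, since 1 cell held 85.6% of its UMIs in D3 dura mater.

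Between the tissues without injury, the inducible Hsp70 genes stood out. Of 1085 genes with at least 100 UMIs, 20 were at least 2-fold higher in S3 dura mater than in S3 brain (1.84%) and 24 at least 2-fold lower (2.21%), with a median of -0.04. Hspa1a at chr17:34969190-34972156, a chaperone made under heat and protein stress, stood at 2706, 118, 2244 and 118 CPM, and its near-identical neighbour Hspa1b at chr17:34956436-34959238 stood at 2027, 109, 1086 and 68.4 CPM. Reads that fit both copies cannot be placed with certainty, so their sum is given: it was 4733, 227, 3329.6 and 186 CPM. Both brain libraries were more than 10-fold above both dura mater libraries. The log2 ratio of dura mater over brain was -4.38 (-4.73 to -4.05) at S3 and -4.16 (-4.53 to -3.82) at D3. A UMI of either gene was found in 90.2, 54.3, 75.5 and 44.1% of the Ly6C low monocytes, and no cell of the brain libraries held more than 9.29% of the sum.

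The difference between tissues was not particular to Ly6C low monocytes. In T cells the sum was 2278, 132, 1296 and 65.7 CPM, in B cells 4010.3, 344, 2397 and 15.6 CPM and in border macrophages 7342, 1143, 2560.4 and 681 CPM. Ly6C high monocytes had 2372, 1537, 659 and 75.5 CPM, so that the ratio at S3 was -0.63 in these cells and between -4.38 and -2.68 in the others. The tissues were digested with enzymes at warm temperature before sorting, and the part of dissociation in these values was not tested.

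The promoters of both genes are shown because each holds the GAANNTTC core of the heat shock element, marked in capitals and searched on both strands. The windows are RefSeq windows of 300 bases on GRCm38.p6, minus strand, at chr17:34972107-34972406 for Hspa1a and chr17:34959189-34959488 for Hspa1b.
Hspa1a: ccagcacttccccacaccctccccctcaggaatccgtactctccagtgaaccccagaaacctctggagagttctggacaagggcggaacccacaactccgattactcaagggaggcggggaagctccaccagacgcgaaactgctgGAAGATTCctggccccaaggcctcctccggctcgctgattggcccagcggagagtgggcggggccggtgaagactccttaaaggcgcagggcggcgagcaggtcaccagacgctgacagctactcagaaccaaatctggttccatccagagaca
Hspa1b: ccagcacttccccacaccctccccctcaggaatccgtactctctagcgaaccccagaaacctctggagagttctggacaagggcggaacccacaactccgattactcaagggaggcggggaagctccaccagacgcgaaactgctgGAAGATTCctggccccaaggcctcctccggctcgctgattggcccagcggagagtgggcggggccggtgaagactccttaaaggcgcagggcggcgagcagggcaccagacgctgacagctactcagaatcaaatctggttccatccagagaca
The 2 windows shared 296 of 300 bases (98.7%). The core occurs in 7.86% of the 32851 promoter windows, and it was in neither window of the cochaperone gene Dnajb1.

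**Figure D4:**
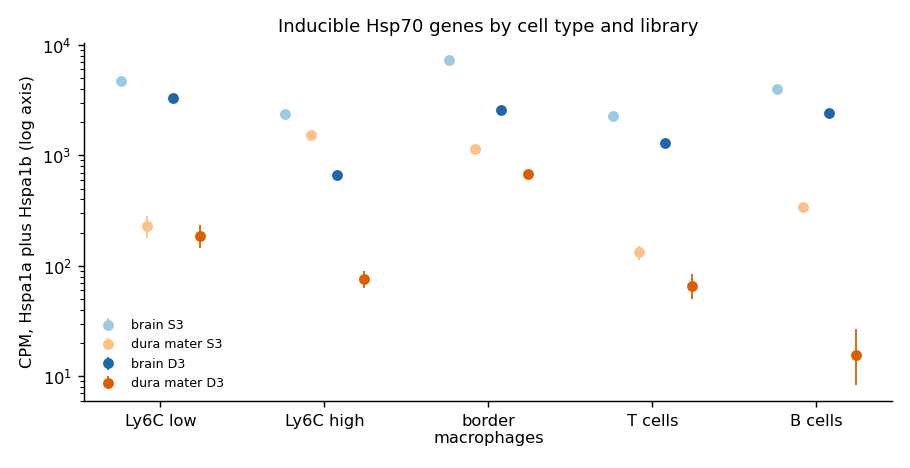
Summed level of Hspa1a and Hspa1b, in CPM on a log axis, in Ly6C low monocytes and 4 other cell types of the 4 libraries, with 95% exact Poisson intervals. In Ly6C low monocytes the brain points stand at 4733 and 3329.6 CPM and the dura mater points at 227 and 186 CPM.

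Other stress and early response genes differed in both directions between the sham tissues. Jun, a subunit of the AP-1 factor, stood at 1368, 352, 716 and 293 CPM, a ratio of -1.96 for S3 dura mater over S3 brain, and Atf3 at 993, 261, 458 and 254 CPM, a ratio of -1.93. Fosb, a partner of Jun, had the opposite direction at 113, 236, 98.8 and 334 CPM, a ratio of 1.06. Of the 12 genes of the stress list 10 were measured, 5 were lower in the dura mater and 1 was higher. Nr4a2 was higher in S3 dura mater, with a ratio of 2.31 (1.66 to 3.02), as were Cd14 at 1.63 and Tlr2, the receptor of bacterial lipoproteins, at 1.25. Slc16a3, a lactate exporter, Slc6a6, a taurine importer, Plaur, the urokinase receptor, Nfil3, a transcription factor, and Cks2, a cell cycle protein, were higher too, with ratios of 1.20, 1.07, 1.04, 1.03 and 1.16. Txnip, which responds to glucose, had a ratio of -1.71, Rgs1, a brake on chemokine receptor signalling, of -1.81, Map3k8, a kinase of inflammatory signalling, of -1.46 and Abi3, an actin regulator, of -1.54.

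Between the injured tissues, 27 of 2372 genes were at least 2-fold higher in D3 dura mater than in D3 brain (1.14%) and 70 at least 2-fold lower (2.95%), around a median of -0.01. Among the lower genes, 3 of 9 measured cytokine genes and 5 of 12 measured stress genes were counted. Cxcl2 had a ratio of -4.03 (-4.62 to -3.49), Slc7a11 of -3.82 (-5.46 to -2.58) and Ptgs2 of -2.57 (-3.72 to -1.61). G0s2, an inhibitor of fat breakdown, stood at 152, 121, 264 and 49.3 CPM, and Ptger4, a prostaglandin E2 receptor, at 183, 63.7, 105 and 21.9 CPM, so that both peaked in the brain libraries. The NF-kB inhibitor genes Nfkbia and Nfkbiz had ratios of -1.43 and -1.31. Without the mixed cells 35 genes were higher and 67 lower of 1966, and Cxcl2 had a ratio of -3.07.

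As a list, the genes of Ly6C low identity were at their lowest in D3 dura mater. Of 23 measured members of the list, Ceacam1, Fabp4, Klf2 and S1pr5 were at least 2-fold lower than in D3 brain and none was higher. The median was -0.69, against -0.22 between the sham tissues. These medians were -0.51 and -0.42 with at least 4 of the 6 markers required. Klf2, a factor of vascular quiescence that also marks circulating leukocytes, stood at 622, 436, 911 and 287 CPM, a ratio of -1.66 (-1.97 to -1.37). Ceacam1, an adhesion receptor, stood at 193, 176, 243 and 112 CPM. Bcl2, which protects cells from death, stood at 152, 93.96, 145 and 57.5 CPM with a ratio of -1.34 (-2.07 to -0.68). Ccr2 was the member of the Ly6C high list past 2-fold, higher in D3 dura mater by 1.43 (1.16 to 1.71) and by 2.21 without the mixed cells. Cells with just 3 markers, 8 of 34 in D3 dura mater and 10 of 155 in D3 brain, held Ccr2 at 1061 and 692 CPM. Their part in the difference of Ccr2 between the tissues was not tested. The median of the Ly6C high list was 0.48, and -0.25 with at least 4 of the 6 markers required. Cell by cell, the summed level of the Ly6C low list had a median over cells of 194, 179, 194 and 139 UMIs per 10000, with a lower quartile of 158, 124, 169 and 87.5. The inhibitory receptor gene Clec12a, the IgG receptor gene Fcgr2b, the adaptor gene Sla and Skil, a repressor of TGF beta signalling, were higher in D3 dura mater, with ratios of 1.14, 1.08, 1.22 and 1.11.

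Class II antigen presentation genes were uneven among the cells and depended on a few of them. The 8 genes of the list summed to 12883, 11660.2, 6006 and 12667 CPM, against 3074, 2326, 2852 and 1665 CPM in Ly6C high monocytes, and to 2856, 8264, 3328 and 8436 CPM without the mixed cells. In S3 brain the 3 mixed cells thus held most of this RNA, and 1 of them held 59.4% of the H2-Aa UMIs. The median over cells was 4.30, 7.44, 5.80 and 13.2 UMIs per 10000, whereas the cell with the most had 759.7, 956, 733 and 518. H2-Aa, a class II alpha chain, was detected in 10, 12, 47 and 22 cells. After thinning every cell to 2000 UMIs, which left out no Ly6C low monocyte, it was detected in 13.7, 20, 16.1 and 38.2% of Ly6C low monocytes and in 5.95, 10.2, 8.16 and 9.52% of T cells, which should lack it. The excess over T cells was thus widest in D3 dura mater. The D3 to S3 median of the list in the brain was -1.16 with all cells and 0.42 without the mixed cells, so its direction rested on them. For D3 dura mater over D3 brain it was 1.16, 1.26 without the mixed cells and 0.52 without the cells with 2 markers of another lineage, with H2-Aa, H2-Ab1, H2-DMb1 and H2-Eb1 past 2-fold, while in Ly6C high monocytes it was -0.77.

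**Figure D5:**
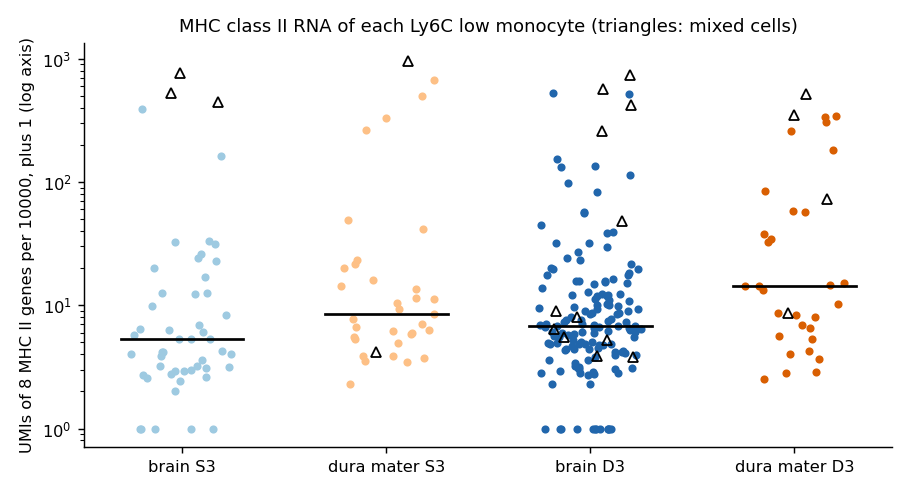
UMIs of the 8 class II genes per 10000 UMIs in each Ly6C low monocyte, plus 1, on a log axis, by library, with the median over cells as a line and the 21 mixed cells as triangles. Most cells lie under 100, and a minority in every library reaches well above it, among them the 3 triangles of S3 brain.

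Genes that act on blood vessels were sparse. Vegfa, the main vascular growth factor, had 3, 41, 48 and 3 UMIs in 1, 8, 16 and 1 cells, or 7.72, 124, 42.0 and 8.21 CPM, against 2.11, 3.59, 8.54 and 12.05 CPM in T cells. Vegfc, a growth factor for lymphatic vessels, stood at 15.4, 21.2, 27.1 and 21.9 CPM, from 6, 7, 31 and 8 UMIs, and had no UMI in Ly6C high monocytes of any library. Pdgfb, which recruits pericytes, stood at 51.4, 36.4, 42.8 and 30.1 CPM. Over the 20 vessel-growth genes, 5 were measured in the brain after injury and Fn1 was at least 2-fold higher, with a ratio of 1.42 that became -0.16 without the mixed cells. Of 4 measured in the dura mater, none passed 2-fold, and the medians were 0.18 and 0.05. The 5 genes that the study named as restraining vessel growth were chosen by it on these same samples and are no independent evidence of direction. Of them Thbs1 was past 2-fold in the brain and Tgfbi in the dura mater, and the medians were 0.39 and 0.83. Ptgs2 was the single measured gene among those for vasoactive peptides and nucleotides in the brain.

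None of the 5 measured interferon genes passed it in the brain, where the median was -0.29, and no interferon gene was measured at 100 UMIs in the dura mater. None of the 10 class I genes passed it in the brain, nor any of 6 in the dura mater. Glycolysis and hypoxia genes had a median of 0.54 in the brain and -0.08 in the dura mater, and none of 12 and 6 measured members passed 2-fold. Ly6C high monocytes had a median of 0.65 for the same list in the brain. Complement genes had a median of 0.94 in the brain, where 2 of 7 measured members, C5ar1 and C1qb, were at least 2-fold higher. C1qb, a subunit of the initiator C1q, stood at 36.0, 39.4, 99.7 and 252 CPM with a brain ratio of 1.47, against 1.78 in T cells. The rule that chose the cells limited its partner subunit C1qa. In the dura mater C1qb was past 2-fold higher at D3 with all cells, but no complement gene was without the mixed cells. Clec4e, the receptor Mincle for dead-cell and mycobacterial products, was past 2-fold in the brain beside Cd14 among 8 measured pattern receptors, with a ratio of 1.61 (1.20 to 2.05).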

How the data were processed

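CD45+ cells were sorted from the brain and dura mater after enzymatic digestion, and 3′ droplet libraries were sequenced and counted by the authors with Cell Ranger 3.1.0 on mm10, then normalised with Seurat 3.1.0. The values deposited by the authors are the natural log of 1 plus UMIs per 10000 of each cell. They were converted back to UMIs, and 100% came out whole within 1e-06. Genes seen in fewer than 3 cells of a library are not in its file and were counted as 0. The deposited barcodes include cells outside the study's limits, so those limits were applied: detected genes above 1000 and below 6000, and a mitochondrial share no higher than 7%.

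Samples were grouped by the labels for tissue and injury, with 1 library each. UMIs of the cells were summed per library, so no test was made. Ratios carry exact conditional 95% intervals, levels exact Poisson intervals and shares exact Clopper-Pearson intervals, which cover counting error only. A level of 0 was set to a floor of 3 UMIs for a ratio. Genes were named from lists of known function, and by a rule: per direction, the 8 genes with the largest ratio at 100 UMIs or more, past 2-fold, seen in at least 10% of cells of the higher group and with no cell above 20% of its UMIs, and for Ly6C low against Ly6C high monocytes the 12 with the largest smallest ratio. A few genes outside these, such as those of single mixed cells, were named after their values were seen. Results for some genes are not reported here. The members and the lists were chosen with earlier results of these data known. Ly6C high monocytes were taken with Ly6c2 at 2.0 or above and C1qa below 1.5. At least 2 of Ccr2, F13a1, Vcan and Csf1r had to be detected, and at most 1 of the 6 markers of Ly6C low cells. They also had no molecule of Cd3e, Cd79a, Retnlg, Gpnmb, Siglech or Ncr1. Border macrophages, T cells and B cells were taken by marker rules of the same kind.

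Scrublet (scanpy 1.11.5) marked 3, 2, 2 and 0 barcodes by its automatic threshold, which is too few to have worked, and no cell was removed. Removing the 179, 184, 281 and 99 barcodes with the highest scores removed 0 Ly6C low monocytes. Gene positions are from GENCODE vM21, with 425 of 426 symbols matched, and promoters from RefSeq. Python 3.11.15, numpy 2.4.6, scipy 1.17.1 and pandas 2.3.3 were used, and the calculations were tested on simulated data. The alternatives changed the filter, the marker rule, the depth, the weight of cells, the UMI minimum and the treatment of free RNA.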

Additional observations from a re-analysis of the deposited data

Results flagged for a closer look

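For 3 genes, the D3 over S3 log2 ratio in Ly6C low monocytes pointed in opposite directions in the brain and the dura mater. S100a8, a calcium-binding protein abundant in neutrophils, had a ratio of 2.51 in the brain and -6.03 in the dura mater. Its partner S100a9 had 1.89 and -6.05. Chil3, a chitinase-like protein of Ly6C high monocytes and neutrophils, had 1.80 and -2.01. With 1 library per tissue and condition, the difference between the tissues was not tested. Without the mixed cells, the dura mater ratios were -0.01 for S100a8, -0.35 for S100a9 and 0.93 for Chil3. The brain ratios were then 1.03 for S100a8, 0.35 for S100a9 and 1.54 for Chil3, so S100a9 was no longer past 2-fold.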

How the results depend on the processing

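No paired analysis was possible because there was 1 library per tissue and condition and no test was made. Intervals cover counting error only, and 34 or 35 cells per dura mater library limit every dura mater value. The order of shares with D3 brain first held under every alternative. Unless stated, the cause of a change was not tested. A rule of at least 2 of the 6 markers gave shares of 1.81, 1.99, 4.24 and 2.21% in S3 brain, S3 dura mater, D3 brain and D3 dura mater. Removing cells with 2 markers of another lineage gave 0.987, 0.560 and 0.675% in S3 brain, S3 dura mater and D3 dura mater. Without the filter on cells D3 brain was at 2.65%, with Retnlg below 1.5 D3 brain and D3 dura mater were at 3.999 and 1.87%, and thinning gave 2.68 and 0.675%.

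Genes past 2-fold numbered 64 for D3 over S3 in the brain, 34 in the dura mater, 44 between the sham tissues, 97 between the injured tissues and 177 for Ly6C low over Ly6C high monocytes. A minimum of 30 UMIs, which tests more genes, gave 364, 205, 210, 429 and 376, and one of 200 UMIs gave 35, 19, 18, 54 and 101. At least 2 markers gave 109, 64 and 101 for the first 3 of these. With Ly6c2 at 0 there were 20 in the dura mater and 18 between the sham tissues. Removal of cells with another lineage left 17 between the sham tissues, and giving each cell the same weight left 22 in the dura mater. Subtraction of the level in T and B cells gave 59 in the dura mater and 166 between the injured tissues. Leaving out the mixed cells, the brain had 40 and the dura mater 19.

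These values changed direction. With at least 2 markers, D3 over S3 in the brain was -0.98 for the neutrophil list, -0.98 for S100a8 and -0.98 for S100a9, and in the dura mater -0.36 for the platelet list and -0.23 for Id2. With at least 4 markers, the median of the Ly6C high list was -0.14 for D3 over S3 in the dura mater and -0.25 between the injured tissues. With Ly6c2 at 0, Chil3 was 1.22 in the dura mater. With other lineages removed, the brain ratio was 1.11 for the class II list, 0.89 for Cd74, 1.29 for H2-Aa, 1.07 for H2-Ab1 and 1.15 for H2-Eb1. The dura mater ratio was 0.017 for the neutrophil list, 1.65 for Chil3, -0.49 for Hmox1 and 0.17 for S100a8, and the ratio between injured tissues was 0.075 for migration receptors and -0.34 for H2-Eb1. Subtraction of T and B cell levels gave 1.29 for Klf6 between the sham tissues. With Retnlg below 1.5, conventional dendritic cell markers were at 1.17 in the dura mater and C1qb at -0.16 between the injured tissues. Without the mixed cells, the brain ratio was 0.42 for the class II list, 0.039 for Cd74, -0.16 for Fn1, 0.68 for H2-Aa, 0.42 for H2-Ab1 and 0.45 for H2-Eb1. The dura mater ratio was 0.93 for Chil3 and -0.36 for Hmox1. Between the injured tissues it was 0.19 for migration receptors, 0.63 for the platelet list, -0.37 for C1qb and 0.63 for Pf4. Removing the highest Scrublet scores took out no Ly6C low monocyte, so ratios between libraries in these cells could not change. That none of 812 values moved by more than its interval therefore tells nothing of doublets among them.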
